A study of Mus musculus with 7 samples.

Results

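A gene desert is a stretch of chromosome without protein-coding genes. The sites described here are CTCF peak pairs of the library of 2700000 mouse liver cells that lay in such stretches. A peak pair was a forward-strand peak and a reverse-strand peak with its centre 10 to 80 bp downstream, each holding at least 2 tags, where a tag is one exonuclease stop. Pairs were taken in order of their summed tags, and each peak was used once. Of 38929 autosomal pairs with 20 or more summed tags, 2043 had a centre more than 200 kb from every protein-coding gene of the mm10 RefSeq annotation. These 2043 pairs were chosen by the tags of the liver cell library, so its tags are given below as a description and carry no test.

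CTCF is a zinc finger protein that binds a long, directional DNA motif and acts at insulators. Together with the cohesin ring it holds the bases of chromatin loops and marks the borders of many topological domains. Gene deserts often flank developmental genes and hold their distant enhancers, and CTCF sites in them set which enhancers and promoters share a domain. In ChIP-exo the exonuclease digests each strand from its 5′ end up to the crosslinked protein, so a bound site shows forward-strand stops on its left and reverse-strand stops on its right.

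The libraries were ChIP-exo 5.0 for CTCF from wildtype mice, which the study's methods describe as adult males 16 weeks old. Those methods give 100 mg as the tissue processed for each preparation of chromatin. Liver cell numbers were estimated there from the wet weight of tissue. Brain, lung, kidney and liver gave 1 library each, and there was 1 library each of 2700000, 270000 and 27000 liver cells. No difference between libraries therefore has a replicate check. All groups share the crosslinking and antibody. The methods give 1% formaldehyde and the labels 0.3%, and the antibody is CTCF in each sample label but IgG in the extraction protocol. Each library is a mixture of the cell types of its organ, so that fewer cells with a bound site and weaker binding per cell cannot be told apart. The listed tags ranged from 527038 in liver to 1635582 in kidney among the organs, and were 6592538, 640635 and 35594 in the libraries of 2700000, 270000 and 27000 cells. The tags listed for a library are those in peaks of 2 or more tags. A value of 0 thus means that no peak of 2 tags was listed. Below, the liver cell tags of a pair are the sum of its 2 peaks in the library of 2700000 cells, unless a window is named. Tags of the other libraries at a pair are those in a window of 200 bp centred on it. The 2 measures are unlike, and such a window can take in peaks of neighbouring pairs. Of the peaks with 5 or more tags, all tags lay at 1 position in 69.8% of those of brain, 86.6% in lung, 89.5% in kidney, 2.09% in liver, and 0.485%, 64.4% and 60.8% in the libraries of 2700000, 270000 and 27000 cells. Whether such peaks hold amplification duplicates that were left in was not tested, so that a tag count may not be a count of molecules.

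Few desert pairs had a reference sequence here. A total of 6 pairs outside the dense bins described below, at 3 places, lay whole within a RefSeq promoter window of 300 bases, and all 3 promoters belong to long noncoding RNA genes. Their sequences are printed on the forward strand of mm10, 50 bases to each side of the pair's centre, to show the letters under a desert footprint. Capitals mark a core of the CTCF motif in the first and, in the other two, the longest run of letters that they share.

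1700007F19Rik, chr3:58163877-58163977: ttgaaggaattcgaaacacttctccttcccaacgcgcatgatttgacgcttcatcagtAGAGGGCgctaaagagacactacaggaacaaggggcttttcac

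Mir100hg, chr9:41474732-41474832: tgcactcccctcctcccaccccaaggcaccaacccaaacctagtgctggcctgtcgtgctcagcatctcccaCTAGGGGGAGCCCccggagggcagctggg

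4930471G24Rik, chr13:47667464-47667564: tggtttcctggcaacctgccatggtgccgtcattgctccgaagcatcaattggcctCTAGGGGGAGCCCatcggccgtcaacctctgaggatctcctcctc

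The promoter of 1700007F19Rik, between Pfn2 and Tsc22d2, held the core AGAGGGC on the forward strand, centred 11 bp to the right of the pair's centre. This pair of 50 liver cell tags, 20 forward and 30 reverse, had 5 tags in brain and none listed in lung, kidney or liver. The pair at Mir100hg, a host gene of microRNAs, held 40 liver cell tags, with 20 tags in brain, 11 in kidney, 14 in lung and 0 in liver. The pair at 4930471G24Rik, between Rnf144b and Id4, held 31 liver cell tags, with 7 tags in brain, 4 in kidney, 10 in lung and 0 in liver. All 3 thus had tags in brain and none in liver. The last 2 held none of the 4 cores searched on both strands, which were AGGGGGC and its variant AGGTGGC, besides AGATGGC and the above AGAGGGC. They shared the 13 letters CTAGGGGGAGCCC, which were found in 3 of 32851 promoter windows on either strand, these 2 included. This run was searched for after the letters had been seen. A core was found within 25 bp of the centre in 2 of the 6 desert pairs in promoter windows, both at 1700007F19Rik, and in 42.9% (39.8 to 46.1) of 936 pairs of the other classes in such windows. The middle 51 bases of all 32851 promoters held one in 5.35%, and the whole 300 bases in 27.6%. Unless named otherwise, intervals are 95% Wilson intervals, and they take in counting error alone.

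The 2043 desert pairs fell into 2 kinds. A total of 774 lay in 5 bins of 10 kb that held at least 20 peaks in each of 6 or more of the 7 libraries, and these are called dense bins. There were 4 neighbouring dense bins at the start of chromosome 9, chr9:3000001-3040000, with 723 pairs, and 1 on chromosome 2, chr2:98660001-98670000, with 51 pairs. The dense pairs lay at 40 places more than 100 bp apart, with a median of 179 tags and a maximum of 6214. In the window of 200 bp centred on the pair, 774 of 774 dense pairs held 2 or more tags in brain, kidney and liver and 773 in lung. This follows in large part from the definition of the bins, which used these libraries. At the start of chromosome 9 brain filled 634 of 723 windows moved by 5 kb, but most of these lay in dense bins too, and of the 57 that lay outside every dense bin brain filled 0. On chromosome 2 brain filled 5 of 51 moved windows (9.80%) and 0 of the 28 outside dense bins. Of the listed tags, the chromosome 2 bin held 1.27% in 2700000 liver cells, 4.46% in 270000 and 8.51% in 27000. Each of the 4 bins on chromosome 9 also held a larger share with fewer cells. In the first of them it was 0.935%, 2.62% and 4.48%. The cause of this rise was not tested. The files do not show whether dense pairs are bound sites. They are kept apart below, except where values are given for all desert pairs. The 1269 pairs outside dense bins lay at 907 places on all 19 autosomes, from 20 pairs on chromosome 19 to 120 on chromosome 14. Of their windows moved by 5 kb, kidney filled 3.07%, brain 2.68%, liver 0.946% and lung 0.0788%. They had a median of 33 liver cell tags (quartiles 24 and 55, range 20 to 290) and a median distance of 43 bp between the stops on the 2 strands, where the other classes had 31 or 32 tags and 44 or 45 bp.

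Brain had tags at the most desert pairs, and liver at the fewest when peaks of 1 position were kept. Among all 2043 pairs, brain held 2 or more tags at 67.5% (65.5 to 69.5), kidney at 57.2% (55.0 to 59.3), lung at 55.8% (53.6 to 57.9) and liver at 49.3% (47.1 to 51.5), and all 4 organs did so at 41.3%. Among all 38929 pairs of the library the shares were 72.2% in brain, 52.6% in kidney, 59.5% in lung, 35.7% in liver and 19.4% in all 4. Outside dense bins brain held tags at 47.8% (45.0 to 50.5) of the desert pairs, kidney at 31.0% (28.6 to 33.6), lung at 28.9% (26.5 to 31.5) and liver at 18.4% (16.3 to 20.6). Of all 37907 pairs outside dense bins, brain held tags at 71.5%, kidney at 51.3%, lung at 58.5% and liver at 33.9%. All 4 organs held tags at 71 of the 1269 pairs, or 5.59% (4.46 to 7.00), against 17.3% of all pairs outside dense bins. Pairs at 1 place share tags, which these intervals do not take in. With the strongest pair of each of the 907 places, the shares were 41.2% in brain, 26.4% in kidney, 23.6% in lung and 14.9% in liver. All 4 organs then held tags at 3.31%, and each of these values lies below its interval above. Differences from the other classes with 1 pair for each place are given below. None of the 1269 moved windows held tags in all 4 organs, which by a limit of 3 counts allows a share of up to 0.236%. The library of 270000 liver cells held tags at 45.5% (42.8 to 48.3) of the desert pairs, against 64% of all pairs, and that of 27000 cells at 1.97% (1.34 to 2.89), against 2.58%.

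**Figure D1:**
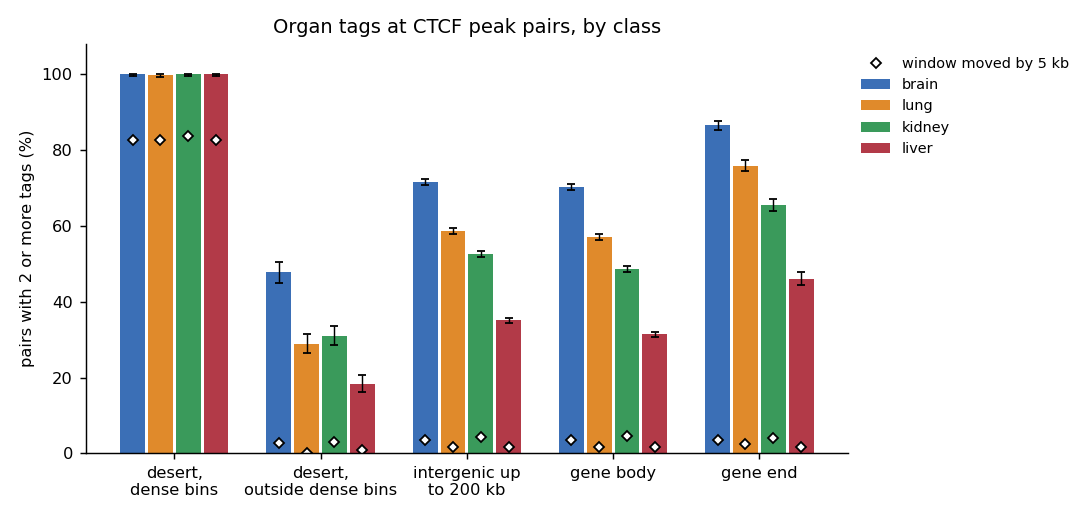
Share of peak pairs with 2 or more tags in the 200 bp centred on the pair (vertical axis, percent) in brain, lung, kidney and liver, by class of pair, with 95% Wilson intervals as error bars. White diamonds are the same windows moved by 5 kb, which for dense pairs mostly land in dense bins again, and which are filled under 4% around the other desert pairs. Outside dense bins, desert pairs have lower bars than each other class in all 4 organs.

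The classes were then compared over the 4 organ libraries. The other classes were pairs within 1 kb of an end of a coding gene, pairs deeper inside coding genes, and intergenic pairs up to 200 kb from one. With all desert pairs, the detected share was lower than at gene ends by a mean of -11.1 percentage points (desert minus class, lower in 3 of 4 organs), and differed by 5.5 points from gene bodies and by 2.4 points from intergenic pairs (lower in 2 of 4 organs each). In an exact two-sided sign-flip permutation test over the organs, p was 0.25, 0.5 and 0.75 respectively, and 0.75 for each after Benjamini-Hochberg adjustment over the 3 classes. Without dense bins the differences were -37.0 points from gene ends, -20.3 from gene bodies and -23.0 from intergenic pairs, lower in 4 of 4 organs each. The exact p was 0.13 for each, adjusted or not, which is the smallest that 4 libraries can give, so the design cannot pass 0.05. The dense bins were defined with the organ libraries included. Among gene ends brain held tags at 86.5% of the pairs and liver at 46.1%, and all 4 organs did so at 30.1%.

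The lower shares were also found between pairs of like tags in the liver cell library. Among pairs of 20 to 29 liver cell tags, brain held tags at 47.4% (43.2 to 51.6) of 540 desert pairs and at 68.8% of gene body, 70.4% of intergenic and 86.6% of gene end pairs. Among pairs of 100 or more tags, brain held tags at 61.3% (51.1 to 70.6) of 93 desert pairs and at 81.7%, 80.6% and 92.2% of the others. Liver held tags at 31.2% (22.7 to 41.2) of these 93 pairs and at 39.2% to 51.7% of the others. In each of the 4 strata of tags and each organ the desert share was below the other 3. The library of 270000 cells gave 83.9% (75.1 to 90.0) for the desert pairs of 100 or more tags and 85.6% to 89.2% for the others, so that these intervals overlap. In the 3 lower strata its desert share was below the others, at 43.5% against 58.4% to 71.4% for 20 to 29 tags, 35.3% against 56.8% to 69.9% for 30 to 49, and 49.8% against 63.1% to 78.6% for 50 to 99. Of those 93 desert pairs, 26 had no tags in any organ, and 18 of these 26 had tags in the library of 270000 cells.

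Detection was lower far inside the deserts in the organs and the 270000 cell library. Brain held tags at 49.4% (46.2 to 52.5) of 962 pairs between 200 and 500 kb from a coding gene and at 42.7% (37.3 to 48.3) of 307 pairs more than 500 kb away. In lung these shares were 32.3% (29.4 to 35.3) and 18.2% (14.3 to 22.9), in kidney 32.5% and 26.4%, and in liver 20.7% (18.2 to 23.4) and 11.1% (8.03 to 15.1). The intervals of the 2 distances overlap in brain and kidney and not in lung and liver. They treat pairs at 1 place as separate, and shares by place were not counted for these distances. Of the classes of distance, that within 10 kb outside a coding gene had the highest share in every organ, at 78.8% in brain, 59.6% in kidney, 68.2% in lung and 40.9% in liver. The median of liver cell tags was 32 to 34 in every class of distance. The 270000 cell library fell too, from 71.2% within 10 kb to 49.3% and 33.9% (28.8 to 39.3) at the 2 desert distances, so the share was lower in a library of liver cells too. The library of 27000 cells went the other way, from 1.04% (0.566 to 1.90) between 200 and 500 kb to 4.89% (2.98 to 7.90) beyond, where its 15 pairs lay at 4 places and 9 of them between Flrt2 and Galc. The part of sequencing depth, mappability and sequence in these shares was not tested.

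**Figure D2:**
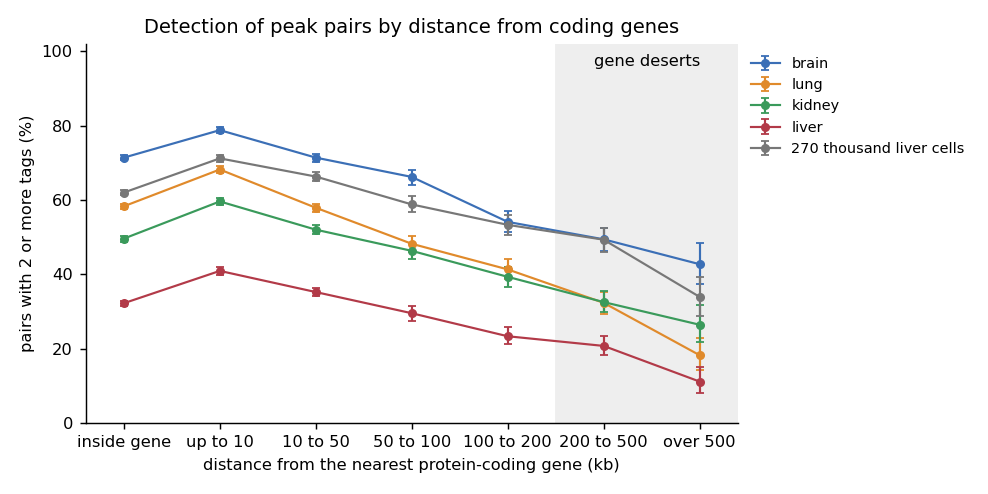
Share of peak pairs outside dense bins with 2 or more tags in the 200 bp centred on the pair (vertical axis, percent) by distance from the nearest protein-coding gene (horizontal axis, kb), for the 4 organs and the library of 270000 liver cells, with 95% Wilson intervals. The shares fall from pairs within 10 kb to those over 500 kb away, in brain from 78.8% to 42.7%.

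Sites were sparse in the deserts. The 731 deserts, each a stretch between neighbouring coding genes less 200 kb at each end, covered 458.5 Mb or 19.1% of the autosomes. Outside dense bins they held 2.77 pairs per Mb (2.62 to 2.92, exact Poisson interval), against 18.8 in the rest of the autosomes and 17.2 inside coding genes. Of the 731 deserts 364 held a pair, and 112 of the 141 deserts over 1 Mb did. The next pair of 20 or more tags more than 100 bp away lay at a median of 63618 bp, against 10093 bp for gene end pairs and 13754 bp for gene body pairs. It lay more than 100 kb away for 41.3% of the desert pairs and for 3.58% to 7.45% of the other classes. These tags chose the pairs, so densities and spacings are descriptions.

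The organ peaks around desert pairs kept the order of strands of a bound site. Of the forward peaks within 100 bp of a pair's centre, the share to the left of it was 70.9% (61.8 to 78.6) in liver, 67.8% (60.6 to 74.3) in lung, 67.5% (60.7 to 73.7) in kidney and 63.8% (59.1 to 68.2) in brain. Reverse peaks lay to the right in 61.5% to 70.0%. The medians of the 2 strands were 26 to 29 bp apart in the 4 organs, and 43 bp in the library of 270000 cells. Around the pairs of the other classes forward peaks lay to the left in 62.3% to 64.7% in the organs. In dense bins they did so in 65.1% to 67.6%, so that the same order was found there. Peaks of which all tags lay at 1 position made up many of these. Without them brain held tags at 34.3% of the desert pairs outside dense bins, kidney at 12.7%, liver at 12.1% and lung at 10.6%, and all 4 organs at 1.97% (25 pairs), so that lung and not liver was the lowest. Of all pairs outside dense bins brain then held tags at 58.1%, lung at 33.3%, kidney at 27.4%, liver at 25.6% and all 4 at 7.14%.

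**Figure D3:**
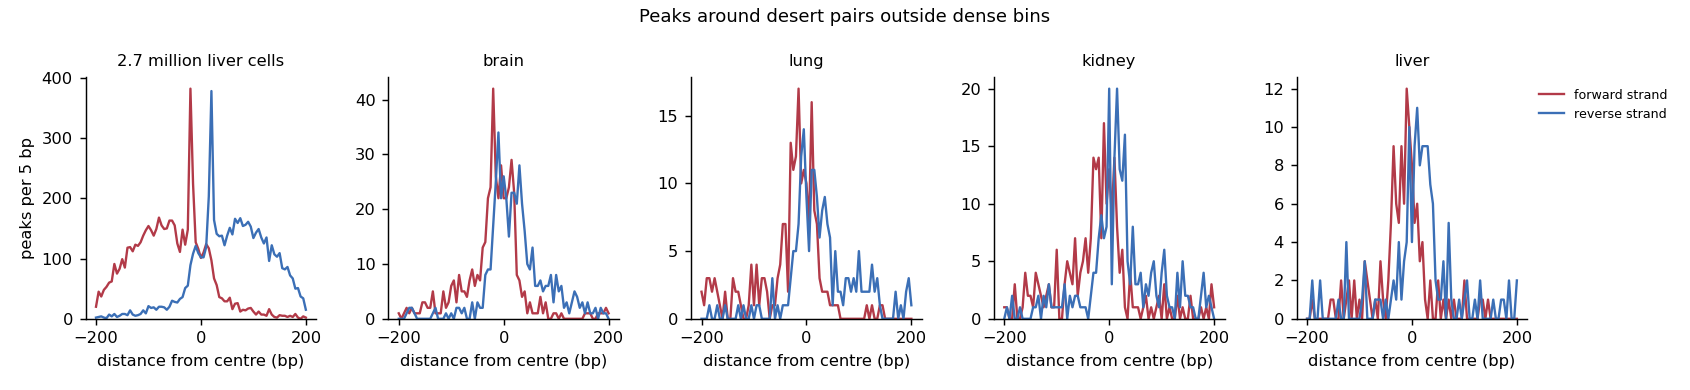
Number of forward (red) and reverse (blue) peaks per 5 bp (vertical axis, its own scale in each panel) by distance from the centre of 1269 desert pairs outside dense bins (horizontal axis, bp), each peak assigned to its nearest pair. In each library forward peaks are more often left and reverse peaks right of the centre. The sharp maxima in the first panel are the peaks that define the pairs.

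The organs shared part of their desert sites. No organ held tags at 465 of the 1269 pairs, 1 organ at 317, 2 at 249, 3 at 167 and all 4 at 71. The share without organ tags was 36.6%, against 14.6% of all pairs outside dense bins, and that with tags in 3 organs 13.2%, against 27.2%. Pairs with tags in 1 organ were found in brain alone at 171, kidney alone at 75, lung alone at 49 and liver alone at 22. Of the 367 pairs with tags in lung, 77.1% also had tags in brain, and of the 606 with tags in brain 46.7% had tags in lung. Of all pairs outside dense bins these shares were 85.8% and 70.1%. Of the 233 pairs with tags in liver, 77.3% had tags in brain, 53.6% in lung and 50.6% in kidney, against 87.6%, 74.7% and 67.3% over all pairs. No pair held tags in lung, kidney and liver but not in brain. Shares of single organs alone and of such combinations were not counted over all pairs. The median of liver cell tags was 32 for pairs without organ tags and 56 for pairs with tags in all 4 organs. The share with tags in 270000 liver cells was 21.7% (18.2 to 25.7) of the pairs without organ tags, 39.1% with tags in 1 organ, 63.9% in 2, 76.0% in 3 and 94.4% (86.4 to 97.8) in all 4.

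The 10 desert pairs outside dense bins with most liver cell tags held 233 to 290. The strongest, chr5:50477138-50477173, lay 418 kb from the nearer of Adgra3, an adhesion receptor gene, and Ppargc1a, a coactivator of mitochondrial and fasting genes. It held 290 tags, 68 forward and 222 reverse, with 17 in 270000 cells and 0 in brain, lung, kidney and liver. The second, chr4:64498015-64498043, lay 451 kb from the nearer of Tnc, which encodes the matrix protein tenascin C, and Pappa, a protease of insulin-like growth factor binding proteins. It held 286 tags, 140 forward and 146 reverse, with 101 tags in brain, 160 in kidney, 37 in lung, 176 in liver and 69 in 270000 cells. Of these strongest 2 pairs, the first thus had no organ tags and the second had tags in every organ.

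The pair chr1:193703258-193703282, between the kinase gene Camk1g and the semaphorin receptor gene Plxna2, held 266 tags, with 25 in brain, 7 in kidney, 10 in lung and 0 in liver. The pair chr1:137218257-137218300, between Nr5a2, a nuclear receptor of liver and pancreas, and Ptprc, which encodes CD45, held 239 tags and 11 in 270000 cells, and 0 in every organ. The pair chr4:152767565-152767604, between Nphp4 and Ajap1, likewise held 239 tags, 21 in 270000 cells and 0 in every organ. The pair chr7:71379235-71379271, between Gm44812 and Mctp2, held 277 tags, with 3 in brain and 8 in lung. The other 4 lay in the T cell receptor alpha desert described below. The liver library, of the same organ as the liver cell libraries, thus held tags at 1 of the 10 pairs, and the 270000 cell library at all 10.

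**Figure D4:**
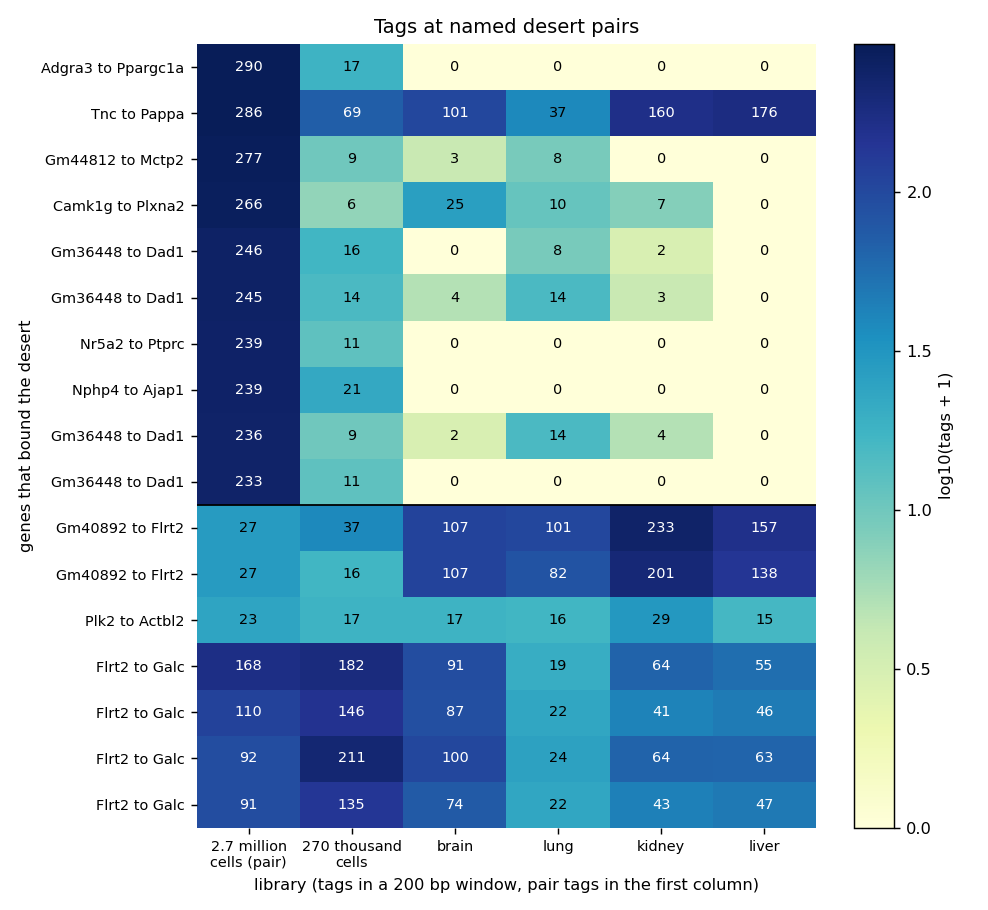
Tags at 17 desert pairs (rows, named by the coding genes that bound the desert) in 6 libraries (columns), as numbers and as colour on a log10(tags + 1) scale. Above the line are the 10 pairs with most liver cell tags, with organ values of 0 to 25 except Tnc to Pappa, and below it further pairs with the highest lowest organ count.

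Outside dense bins, the 71 pairs with tags in all 4 organs were the fewest by number of organs. By the highest lowest organ count, without peaks of 1 position, the first 2 were neighbours in the desert between Gm40892 and Flrt2, a gene of a leucine-rich repeat membrane protein. The pair chr12:93577056-93577106 held 27 liver cell tags, but 107 tags in brain, 233 in kidney, 101 in lung and 157 in liver, and 37 in 270000 cells. In the same 200 bp the library of 2700000 cells held 83 tags, so that each organ window held more. On the other side of Flrt2, towards Galc, which encodes a lysosomal galactosylceramidase, 9 pairs lay between chr12:97061445 and 97061785. The pair chr12:97061485-97061515 there held 168 liver cell tags and lay 1141 kb from the nearest coding gene. The 200 bp around its centre held 91 tags in brain, 64 in kidney, 19 in lung, 55 in liver and 182 in 270000 cells. That window takes in peaks of neighbouring pairs, which the 168 tags leave out. The pair chr13:110744339-110744358, between Plk2, a kinase gene, and Actbl2, held 23 liver cell tags, with 17 in brain, 29 in kidney, 16 in lung and 15 in liver. Pairs whose windows overlap share their organ tags.

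For each organ, 2 pairs had the highest ratio of its tags to those of the other organs, each as a share of its library, with peaks of 1 position left out and at least 10 tags in the organ. The tags given here include such peaks. For brain the first was chr18:73166188-73166238, between Dcc, a netrin receptor of growing axons, and Mex3c, with 24 liver cell tags, 20 in brain, 0 in lung and kidney and 2 in liver. The second, chr1:112378884-112378925, lay between Dsel and Cntnap5a and held 20 tags in brain, 9 in kidney, 10 in lung and 0 in liver. For lung both lay 283 kb from the nearer of Cxcr4, a chemokine receptor, and Thsd7b. The stronger, chr1:128875423-128875464, held 204 liver cell tags, with 4 in brain, 2 in kidney, 45 in lung and 0 in liver. For kidney both lay between Pax1 and Foxa2, transcription factor genes of the embryonic skeleton and endoderm. The stronger, chr2:147738484-147738528, held 106 liver cell tags and 12 in kidney, but also 12 in lung, all in peaks of 1 position. For liver both lay at the start of chromosome 16, and chr16:3122997-3123075 held 176 liver cell tags, with 2 in brain, 9 in kidney, 3 in lung and 15 in liver. With 1 library for each organ, these ratios rank single libraries.

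The pair farthest from a coding gene, chr14:90433326-90433352 between the protocadherin genes Pcdh20 and Pcdh9, lay 1962 kb away. It held 74 liver cell tags, with 2 in brain and none in the other organs or in 270000 cells. The next, between Tenm3 and Aga, held 25 tags and the one between Dsel and Cntnap5a 26, both without tags in any other library. A group of 3 overlapping pairs at 1605 or 1606 kb, between Lrrc4c, a synaptic adhesion gene, and Iftap, had up to 109 liver cell tags and shared 10 tags in brain. These 6 most remote pairs thus held few tags outside the library that chose them.

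Of the 6 deserts with most pairs, 2 owed their place to dense bins, those from the start of chromosome 9 to Alkbh8 (723 of 723 pairs) and from Lrrc4c to Iftap (51 of 58). The third, between Gm36448 and Dad1 on chromosome 14, held 55 pairs at 41 places and is a desert only by annotation. It holds 123 segments of the T cell receptor alpha locus, which RefSeq does not class as protein-coding. These variable segments are rearranged in developing T cells. Each of the 55 pairs lay within 3115 bp of a segment, at a median of 231 bp. Brain held tags at 24 of them, lung at 11, kidney at 17 and liver at 2, and 21 had no organ tags.

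At some segments of this locus, the pairs recurred with the copies. RefSeq names many segments in 3 copies, with a d, with an n and with neither letter, and 11 of these names had a pair nearest to each of the 3. These 11 are described because each copy had a pair, and the names without one at every copy were not counted. Pairs also lay nearest to Trav12d-1 and Trav12-1, for example, and none nearest to an n copy of that name. Beside Trav6d-6, Trav6n-6 and Trav6-6 lay pairs of 236, 233 and 245 tags, at 130, 132 and 131 bp from the segment, with 49, 42 and 54 forward and 187, 191 and 191 reverse tags. Beside Trav16d-dv11, Trav16n and Trav16 the pairs held 120, 93 and 98 tags, at 1762, 1780 and 1722 bp. Beside Trav9d-1, Trav9n-1 and Trav9-1 they held 78, 90 and 105 tags, and here the forward peak was the stronger, with 54, 59 and 70 forward and 24, 31 and 35 reverse tags. The same strand was stronger in all 3 copies for 10 of the 11 names, and the exception was Trav10. Over the 11 names the highest of the 3 copies held a median of 1.29 times the tags of the lowest (1.05 to 2.48), and the distances to the segment differed by a median of 10 bp (2 to 58). In the organs the copies were alike at some names and not at others. Brain held 5, 6 and 7 tags at the pairs of Trav10d, Trav10n and Trav10, whereas lung held 14 each at Trav6d-6 and Trav6-6 and 0 at Trav6n-6. The authors removed reads that aligned to more than 1 place, so counts in near-identical copies are uncertain. These groups of copies were made after the values had been seen.

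**Figure D5:**
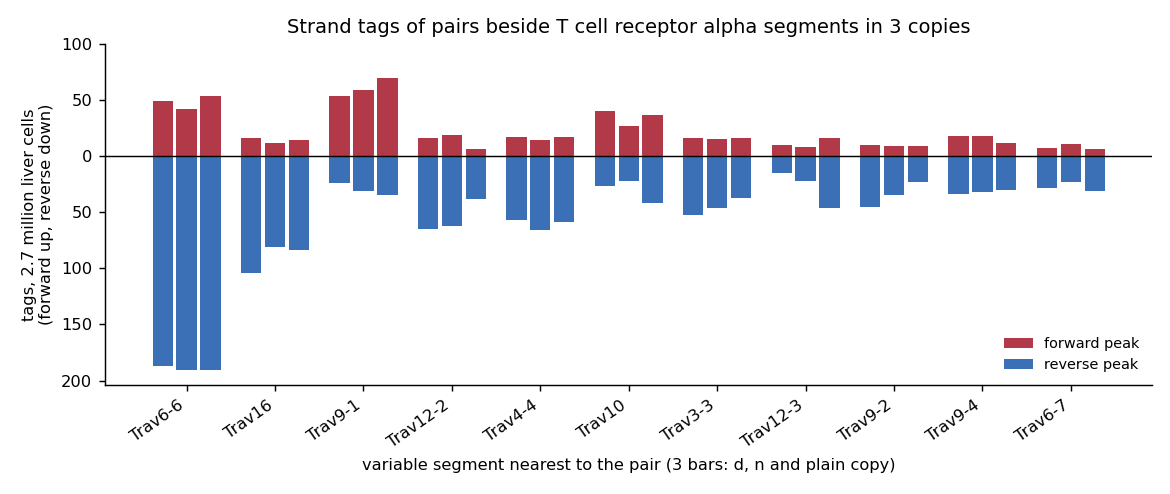
Tags of the forward peak (up) and reverse peak (down) in the library of 2700000 liver cells for the strongest pair nearest to each of 11 T cell receptor alpha segments that RefSeq names in 3 copies (d, n and plain, left to right). These names were chosen because each copy had a pair. At Trav6-6 the reverse peak holds 187 to 191 tags and the forward peak 42 to 54 in each copy, whereas at Trav9-1 the forward peak is the stronger in each copy.

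The desert between Adam6a and Zfp386 on chromosome 12 likewise holds 152 segments, those of the immunoglobulin heavy chain. It had 30 pairs of 20 to 103 tags, and the forward peak was the stronger in 24 of them and the reverse peak in 4. In the T cell receptor alpha desert the reverse peak was the stronger in 41 of 55, and among all 1269 pairs in 51.1% (48.4 to 53.9). Organ tags were few, with 1 pair in brain, 6 in kidney, 3 in liver and 0 of 30 in lung, which by the same limit allows a share of up to 10%. The strongest pair, with 71 forward and 32 reverse tags, had 7 tags in kidney and none in the other organs. In all, 95 of the 1269 pairs lay in deserts with antigen receptor segments, and without them brain held tags at 49.1%, kidney at 31.3%, lung at 30.3% and liver at 19.4%.

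The remaining 2 differed in their organ tags. Between Gm4868 and Tmem132c on chromosome 5, 30 pairs lay at 24 places over 992 kb with a median of 36 tags and a maximum of 132, and 24 had no tags in any organ. From the start of chromosome 16 to the olfactory receptor gene Olfr161, 27 pairs lay at 9 places, and 9 pairs had tags in all 4 organs. There, chr16:3351079-3351137 held 135 liver cell tags, with 9 in brain, 18 in kidney, 7 in lung, 6 in liver and 29 in 270000 cells. The strongest pair of that desert, chr16:3247900-3247980, with 152 forward and 49 reverse tags, had 0 in each of the other libraries, as had 5 further pairs within 250 bp of it.

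Deserts beside developmental regulators and beside cell adhesion and synapse genes were counted from 2 lists. Of 35 developmental regulators 30 bounded a desert, and 24 of their 40 deserts held 73 pairs outside dense bins, at 2.77 per Mb (2.17 to 3.48). Of 52 adhesion and synapse genes 43 bounded a desert, and 37 of their 61 deserts held 142 pairs, at 1.46 per Mb (1.23 to 1.72). Deserts of neither list held 3.15 per Mb (2.96 to 3.34). Brain held tags at 38.4% (28.1 to 49.8) of the pairs beside developmental regulators, 57.0% (48.8 to 64.9) beside adhesion and synapse genes and 47.2% (44.2 to 50.2) elsewhere. In lung the shares were 28.8%, 16.9% (11.6 to 23.9) and 30.6% (27.8 to 33.4). Kidney held tags at 23 of 73, 55 of 142 and 316 of 1054 pairs, and liver at 9, 27 and 197. Of these values, the interval of the adhesion and synapse list lay apart from that of other deserts in density and in lung only. These intervals treat pairs at 1 place as separate. Flrt2 alone bounded deserts with 23 of the 142 pairs. Of its 15 pairs towards Galc, brain and kidney held tags at 12 each, and lung and liver at 9 each. Of its 8 towards Gm40892, brain and kidney held tags at 5 each, and lung and liver at 2 each. Shares of the lists by place or without Flrt2 were not counted. No test was made on the lists.

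Among the developmental regulators, Sox9, a regulator of cartilage and gonads, had 8 pairs in its deserts. The strongest, chr11:112525150-112525192, held 131 liver cell tags, 12 in 270000 cells and 0 in every organ. Beside the proto-oncogene Myc also lay 8 pairs, of which 5 lay together, and the strongest, chr15:61157676-61157724, held 131 liver cell tags, with 39 in brain, 7 in kidney, 64 in lung and 0 in liver. Beside Epha4, an ephrin receptor of limb and nervous system, chr1:75925867-75925938 held 47 liver cell tags, with 8 in brain, 3 in kidney, 30 in lung and 0 in liver. Beside Irx1, a homeobox gene, chr13:71458521-71458593 held 28 liver cell tags, with 9 in brain, 15 in kidney, 30 in lung and 0 in liver. The strongest pairs beside Nr2f1, Tbx3, Bcl11a and Bmp2, with 64, 93, 79 and 67 liver cell tags, had 0 tags in every organ. The strongest pairs beside all listed developmental regulators were 20, of which 10 had no organ tags, 5 had most tags in lung alone and 4 in brain alone, and 2 had any tags in liver. Of all 1269 pairs 36.6% had no organ tags, and liver held tags at 18.4%. The organ with most tags was taken from raw counts of libraries of unlike depth, and was not counted over all desert pairs.

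Among the adhesion and synapse genes, Flrt2 had most pairs (23). Beside Tenm3, a teneurin of synapses, chr8:50292317-50292352 held 183 liver cell tags, with 19 in brain, 5 in kidney, 0 in lung and 0 in liver. Between the cadherin genes Cdh12 and Cdh18, chr15:21885376-21885406 held 147 liver cell tags, with 13 in brain, 2 in kidney, 0 in lung and 0 in liver. Beside Cdh8, chr8:96153023-96153062 held 136 liver cell tags, with 6 in brain, 0 in lung and kidney and 2 in liver. Beside Csmd3, chr15:50261675-50261743 held 60 liver cell tags, with 16 in brain, 7 in kidney, 0 in lung and 2 in liver. The strongest pairs beside all listed adhesion and synapse genes were 29, of which 7 had no organ tags, 16 had most tags in brain alone and 4 in kidney alone, and 3 had any tags in lung. Of all 1269 pairs 36.6% had no organ tags, and brain held tags at 47.8%, the most of the organs, and lung at 28.9%. Raw counts were used here too, and the organ with most tags was not counted over all desert pairs. Between Pcdh20 and Pcdh9 the strongest pair, chr14:92764542-92764579, held 176 liver cell tags and 0 in every organ.

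Noncoding genes were about as common at the pairs as beside them. Of the 1269 pairs 226 (17.8%) lay inside a long noncoding RNA gene, against 205 (16.2%) of the positions moved by 5 kb. The 39 pairs within 1 kb of an end of such a gene held tags in brain at 74.4% (58.9 to 85.4), those deeper inside at 57.3% (50.3 to 64.0) and those outside at 44.9%. In lung these shares were 35.9%, 38.7% and 26.8%, and in kidney 20.5%, 37.2% and 30.3%. In liver they were 10.3% (4.06 to 23.6), 14.1% (9.92 to 19.6) and 19.5% (17.2 to 22.0), whose intervals overlap. Of the organs, only brain had its highest share at the gene ends. With 39 pairs there, the intervals at the ends and deeper inside overlap in every organ, so this order is uncertain. The median of liver cell tags was 31, 32 and 33.

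The pairs just inside and just outside the thresholds were alike in number. In deserts outside dense bins 86 pairs held 20 tags, of which 45 had tags in brain and 10 in liver, and 95 pairs held 19 tags, of which 44 and 15 had. In the first 10 kb past 200 kb from a coding gene lay 62 pairs of 20 or more tags, of which 30 had tags in brain, and in the last 10 kb before it lay 71, of which 38 had.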

How the data were processed

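Reads of 40 bp from both ends were aligned by the authors, who discarded PCR duplicates and reads with more than 1 best place. The submitters' processing notes name BWA 0.7.9a, bcl2fastq 2.16 and mm10, while the text of the methods names the yeast and human genomes only. The deposited files list strand-specific peaks of 21 bp with a count of tags, not normalized. No peak caller is named. 

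Pairs, windows of 200 bp and detection at 2 or more tags were computed from the deposited counts. Genes came from RefSeq on GRCm38.p6, the coordinates of mm10 (20560 autosomal protein-coding genes, without strand or exons). Genes ending before 3 Mb of a chromosome were left out, since they carry positions on scaffolds. Pairs recovered on simulated peaks were checked against the known ones. Members, gene lists and named-pair rules were chosen with earlier results of these data known. The named pairs were the 10 strongest, the 6 farthest from genes, the 8 with the highest lowest organ count, 2 for each organ by ratio, the 6 deserts with most pairs and the strongest pair beside each listed gene. The promoter sequences are those of RefSeq. Motifs away from promoters and GC content were not analysed here, since no genome sequence was used. With no depth of the reads outside peaks, precision rests on the listed tags. The tools were scipy 1.17.1 and statsmodels 0.14.6 for tests, pandas 2.3.3 with numpy 2.4.6 for tables and matplotlib 3.10.9 for plots, in Python 3.11.15. The values of 1 desert are not reported here.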

Additional observations from a re-analysis of the deposited data

Results flagged for a closer look

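The X chromosome was outside the comparisons above, and 27 pairs of 20 or more liver cell tags lay in its deserts. Brain held tags at 37.0% of them (21.5 to 55.8) and lung at 25.9% (13.2 to 44.7). Kidney held tags at 14.8% (5.92 to 32.5) and liver at 7.41% (2.06 to 23.4). None of the 27 moved windows held tags, which by a limit of 3 counts allows a share of up to 11.1% (Wilson upper bound 12.5%), and the intervals of kidney and liver overlap this range. Shares over all pairs of the X chromosome were not counted, so these values do not show a trait of its deserts. They are given because the signal lay in data not used above.

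With dense bins kept, the difference between desert pairs and each other class had opposite signs in different organs. Against gene ends it was -20.1 percentage points in lung and 3.2 in liver. Against gene bodies it was -2.8 points in brain and 17.8 in liver, and against intergenic pairs -4.4 in brain and 13.4 in liver. With 1 library for each organ, the difference between organs was not tested. Without dense bins all of these differences were below 0, from -13.0 to -47.0 points.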

How the results depend on the processing

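All values here are for the 2043 pairs with dense bins kept unless said. The shares with tags are given for brain, lung, kidney, liver and all 4 organs in this order, after the number of pairs and pairs per Mb. A minimum of 10 tags gave 3937 pairs at 8.59 per Mb, with 51.6%, 37.9%, 40.1%, 32.3% and 22.9%. A minimum of 40 tags gave 1204 pairs at 2.63, with 79.2%, 71.4%, 72.0%, 66.9% and 61.4%. With long noncoding genes also bounding deserts, 351 pairs at 1.66 were left, with 47.3%, 23.1%, 27.1%, 17.7% and 2.85%. A distance of 100 kb gave 3480 pairs at 5.29, with 64.3%, 52.0%, 53.2%, 42.8% and 32.2%, and one of 500 kb 358 pairs at 1.78, with 50.8%, 29.9%, 36.9%, 23.7% and 18.4%. Leaving out dense bins gave 1269 pairs at 2.77, with 47.8%, 28.9%, 31.0%, 18.4% and 5.59%. With 1 pair for each place of 100 bp, an alternative added after seeing the data, 947 pairs at 2.07 were left, with 43.7%, 26.8%, 29.5%, 18.5% and 7.39%. With antigen receptor segments also bounding deserts, likewise added, lung held tags at 58.0% of the pairs.

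Other choices changed only how organ tags were read. Without organ peaks of 1 position, which made lung and not liver the lowest, the shares were 59.2%, 44.3%, 45.8%, 45.4% and 38.9%, and in windows of 100 bp 63.4%, 51.2%, 52.9%, 46.9% and 38.9%. In windows of 400 bp brain, lung and kidney gave 69.6%, 58.6% and 61.4%. With 5 or more tags required, the shares were 57.4%, 51.1%, 47.3%, 40.6% and 38.4%. For the 1269 pairs outside dense bins they were then 31.4%, 22.1%, 15.1%, 4.41% and 1.65%. At 2 or more tags those pairs gave 47.8%, 28.9%, 31.0%, 18.4% and 5.59%, so the cutoff mattered more there. The cause of these moves was not tested.

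The mean difference over organs turned its sign for 2 of the 3 classes. Desert minus gene body, 5.5 points in the main comparison, was -13.2 among pairs of 20 to 49 tags, -20.3 without dense bins and -19.0 with 1 pair for each place besides. Desert minus intergenic, 2.4 points, was -15.9, -23.0 and -20.6. Against gene ends it stayed below 0 in all of these. Leaving out organ peaks of 1 position gave 14.9 points against gene bodies and 11.1 against intergenic pairs with dense bins kept. No test passed 0.05 under any alternative, since 4 libraries cannot reach it. No paired analysis was possible because each group has 1 library and the labels number no replicates. The limits are the single library for each organ, the low tags of most detected pairs (medians of 2 to 8 outside dense bins) and lists that hold no peak under 2 tags.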

Other observations

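The library of 2700000 liver cells listed the most tags, and in windows of the same 200 bp it held at least as many tags as every organ at all but 2 of the 1269 desert pairs outside dense bins. This follows in large part from the choice of the pairs by the tags of that library, and the counts are not normalized for its depth. The 2 exceptions lay at 1 place between Gm40892 and Flrt2. In the window of chr12:93577056-93577106 that library held 83 tags, against 107 in brain, 233 in kidney, 101 in lung and 157 in liver. In the window of chr12:93577119-93577175 it held 63 tags, against 107, 201, 82 and 138 in the same organs. Of all pairs outside dense bins, 11 of 37907 (0.0290%) had an organ window above that of the liver cell library. These pairs were singled out after their values were seen.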
